A study of Mus musculus with 6 samples.

Results

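The genes described here are 35 genes of glucose transport, glycolysis, lactate handling and glycogen metabolism, taken by name from a fixed list out of the 23337 genes of a table of RNA-seq read counts. All 35 were found in the table, and the pyruvate kinase gene Pkm stood there under its older symbol Pkm2. The counts came from GFP+ CMs (cardiomyocytes) of wildtype mice, isolated by collagenase perfusion, purified by FACS and collected at postnatal day 14 (P14). At P1 the mice of the SRF-OE group had received 500000000 vector genomes per g of AAV9-cTNT-SRF-2A-GFP, a virus in which the cTNT promoter, active in CMs, drives the transcription factor SRF together with GFP. The GFP group received the same dose of AAV9-cTNT-GFP, without SRF, so both groups had been injected, expressed GFP and were sorted for it. The study asked how raised SRF changes gene expression in maturing CMs, and its design text gives 3 biological replicates per group.

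Counts were available for 5 libraries, SRF-OE replicates 2 and 3 (OE2 and OE3) and GFP replicates 1, 2 and 3 (GFP1, GFP2 and GFP3), because the column headed as the first SRF-OE replicate held gene lengths. The libraries held 14137433 to 23159631 counts. Srf, counted from the gene and the transgene alike, stood at 360 and 748 CPM (counts scaled to a common library size with TMM factors) in OE2 and OE3. It stood at 338, 67.2 and 85 CPM in GFP1, GFP2 and GFP3, so the library labelled GFP1 lay close to OE2 and far from the other GFP libraries. The log2 fold change of Srf, SRF-OE over GFP, was 1.76 (SE 0.71, adjusted p = 0.36 by edgeR's quasi-likelihood test) with the 5 libraries and 2.87 (SE 0.37, adjusted p = 0.044) without the library labelled GFP1. In the table the header is out of step with its columns, since gene symbols stand under the name Chr and lengths under OE1, and whether the names of the libraries are displaced by 1 column as well could not be told from the labels. If they are, the column named GFP1 holds an SRF-OE library, and each mean, overlap and fold change given with the 5 libraries has that library on the wrong side, while the comparison without GFP1 keeps its groups. Names were taken as they stand, and the main results were taken with the 5 libraries as labelled and again without GFP1. The labels do not say how far the replicates were independent beyond the design text, so the p-values measure the spread between these libraries.

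Glycolysis splits glucose into pyruvate, and the enzymes of its early steps consume the ATP that the later steps return with a surplus. Hexokinase and phosphofructokinase are its main control points, fructose 2,6-bisphosphate made by the PFKFB enzymes activates the latter, and many steps have isoform genes that differ between muscle and other tissues. Heart muscle relies more on glycolysis and lactate before birth and turns towards fatty acid oxidation after it, and it keeps a glycogen store that glycogen phosphorylase opens and glycogen synthase fills.

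No member passed an adjusted p of 0.05 with the 5 libraries, in either direction, and the same held for every gene of the table, with 0% of the 13754 genes tested called higher and 0% called lower by edgeR. DESeq2 on the same counts called 6 members lower and 0 higher of the 23 it gave an adjusted p, against 213 (18.3%) lower and 11 (0.943%) higher of the 1167 genes it gave one. Of the 35 members, 24 had a negative log2 fold change and 11 a positive one, and their median was -0.21 against 0.03 for the whole table. At an unadjusted p under 0.05 there were 7 members lower in SRF-OE (Hk1, Pfkm, Ldhb, Pygm, Phkg1, Gys1 and the row named Pgm2) and 1 higher (Pfkfb3), where the share of all genes was 7.59% lower and 6.35% higher. In 13 members both SRF-OE libraries lay below all GFP libraries and in 2 members above them. Over all genes tested, the groups did not overlap in 17.3% with SRF-OE lower and in 16.1% with SRF-OE higher.

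Without the library labelled GFP1, 34 members were tested and 3 were called. Pfkfb1 rose, and Pfkm and the row named Pgm2 fell, each at an adjusted p just under the threshold, and all 3 calls were lost with upper quartile scaling. Among all 13397 genes of that fit, 1.98% were called higher and 0.97% lower. At an unadjusted p under 0.05 this fit had 12 members lower and 3 higher, against 14% and 14.4% of all genes. The groups did not overlap in 17 members with SRF-OE lower and in 4 with SRF-OE higher, against 30.2% and 30.8% of all genes. The median of the members was -0.25, against 0.035 over all genes tested.

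**Figure D1:**
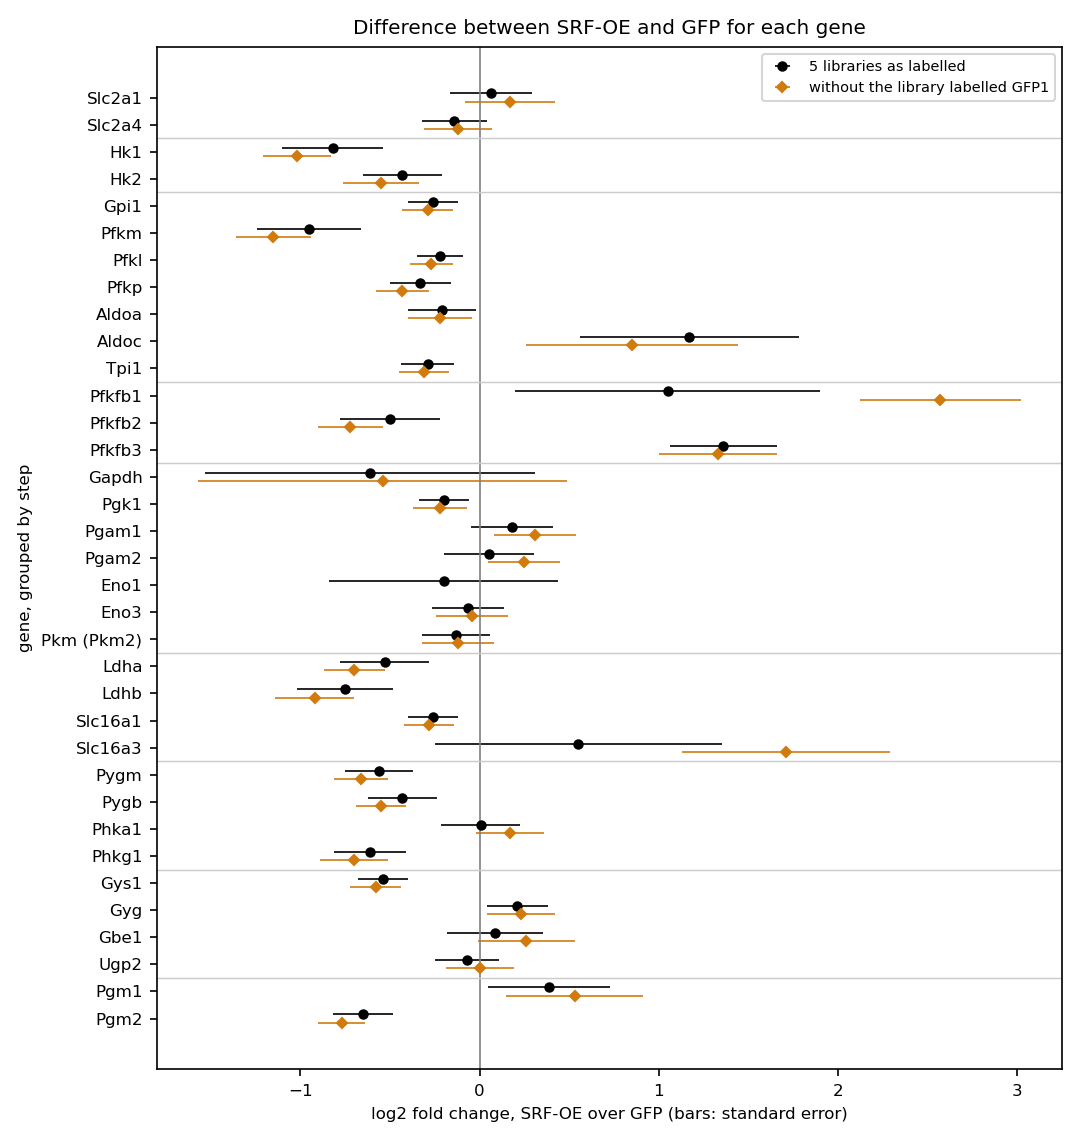
Log2 fold change of SRF-OE over GFP for the 35 genes, ordered by step along the y axis. Black circles are the 5 libraries as labelled and orange diamonds the fit without the library labelled GFP1, with bars for the standard error. The phosphofructokinase gene Pfkm lies farthest left in both fits (-0.95 and -1.15), and Pfkfb1 moves from 1.05 to 2.57 between them.

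Summed over the 35 genes, OE2 and OE3 held 17644 and 20719 CPM, and GFP1, GFP2 and GFP3 held 22313, 23514 and 25923 CPM. The genes took 1.92% and 2.23% of all counts in OE2 and OE3, and 2.26%, 2.21% and 2.33% in GFP1, GFP2 and GFP3. The groups did not overlap in the sum of CPM, with OE2 the lowest and GFP3 the highest. In the share of counts, which takes no TMM factors, the groups overlapped, with OE3 above GFP2. The CM markers moved the same way. The summed level of 8 of them (Myh6, Tnnt2, Actn2, Ttn, Ryr2, Pln, Myl2 and Tnni3) was 74436 to 76887 CPM in SRF-OE and 79632 to 112627 CPM in GFP, and none of the 8 was at 0. Endothelial markers (10 genes) summed to 379 to 969 CPM in SRF-OE and 395 to 745 CPM in GFP, fibroblast markers (9 genes) to 458 to 916 CPM and 333 to 496 CPM, and smooth muscle and pericyte markers (8 genes) to 755 to 861 CPM and 799 to 1636 CPM. That last sum is mostly Acta2 (530 and 371 against 462, 1017 and 1462 CPM), and the other 7 markers of the list had positive log2 fold changes. With the 5 libraries edgeR called 0 of the 8. Without GFP1 it called 1 higher and 1 lower, against 1.98% and 0.97% of all genes. All 10 endothelial and all 9 fibroblast markers had positive log2 fold changes, with and without GFP1. With the 5 libraries 0 endothelial and 4 fibroblast markers were higher without overlap, against 16.1% of all genes, and edgeR called 0. Without GFP1 these numbers were 1 and 9, against 30.8% of all genes, and edgeR called 0 and 1 higher, against 1.98%. Leukocyte markers (8 genes) summed to 12.7 to 34.6 CPM in SRF-OE and 11.8 to 25.2 CPM in GFP, fast skeletal muscle markers (6 genes) to 10.3 to 32.5 CPM and 2.44 to 26.7 CPM, and 3 erythroid markers, 1 of them at 0 in every library, to 5.33 to 6.64 CPM and 0.522 to 3.47 CPM. The part of other cells in the members' levels was not tested, and in sorted bulk samples fewer cells of a type and less RNA per cell cannot be told apart.

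Taken relative to the summed CM markers of the same library, the 35 genes stood at 0.229 in OE2 and 0.278 in OE3, and at 0.28, 0.247 and 0.23 in GFP1, GFP2 and GFP3, so the groups overlapped. On that scale 6 members kept both SRF-OE libraries below all GFP libraries. They were Pfkm, Ldhb, Pygm, Pygb, Phkg1 and the row named Pgm2, and the share of all genes lower without overlap was 3.76%. Aldoc and Pfkfb3 lay higher without overlap, as did 32% of all genes. Hk1 overlapped on this scale, and so did Gys1. Most of the marker sum was Myh6, which the study names a direct target of SRF. It stood at 40490 and 44052 CPM in SRF-OE and at 43585, 56881 and 68787 CPM in GFP. Of the 8 markers, 7 had negative log2 fold changes with the 5 libraries, and Ttn a positive one of 0.20. The scale thus follows Myh6 more than the other markers, and it does not by itself measure CM content. This scaling was chosen after the data were seen.

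**Figure D2:**
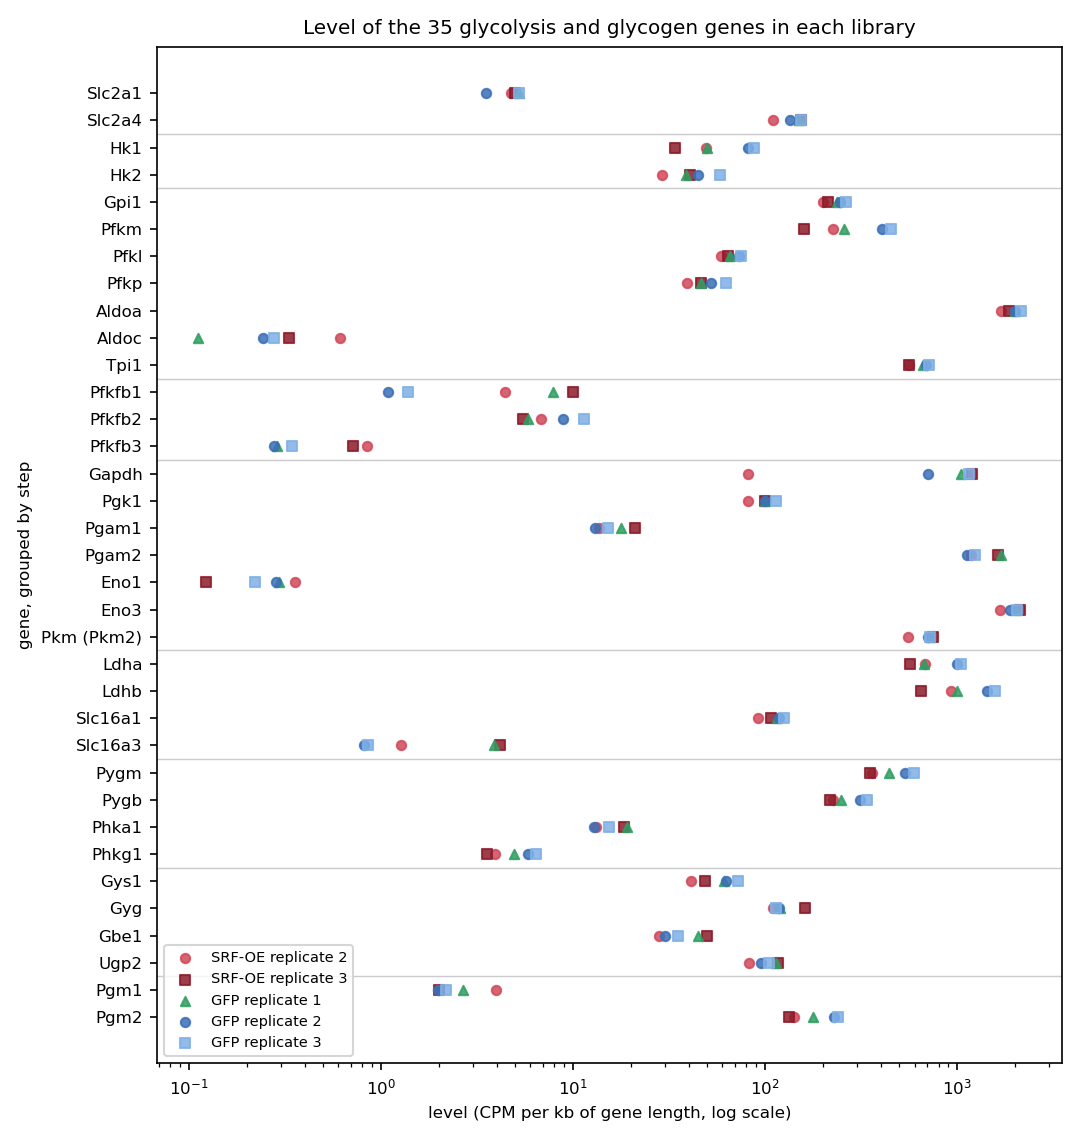
Level of each of the 35 genes in each of the 5 libraries, in CPM per kb of gene length on a log axis, ordered by step along the y axis. Levels span from below 1 CPM per kb for Aldoc, Eno1 and Pfkfb3 to a mean of 1953 CPM per kb for Eno3, and the green triangles of GFP1 lie near the red SRF-OE markers for Hk1, Pfkm, Pfkfb1, Ldha, Ldhb and Slc16a3.

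Since the genes of a pathway can share regulators, the DNA before their start sites was searched for short motifs. RefSeq windows of 250 bases before a start (build GRCm38.p6) were found for 32 of 33 members, with the 2 phosphoglucomutase genes left out because their names are ambiguous. The motifs were the CArG box, which is the site SRF binds, ACGTG and CACGTG, all on both strands. ACGTG is a core found in sites of hypoxia-inducible factors, and other forms of that core were not searched. CACGTG is the E-box read by factors such as MYC, USF and ChREBP. Every CACGTG also holds ACGTG on both strands. The CArG box was in 0 of 32 members and in 1.62% of 27025 genes with windows. CACGTG was in 5 of 32 (15.6%), namely Ldha, Pfkm, Pfkfb2, Pfkfb3 and Slc16a1, against 6.86% of all genes and 9.83% of those tested here. ACGTG was in 15 of 32 (46.9%), against 18.5% of all genes and 24.9% of those tested. Members had more windows per gene than genes at large, and by windows CACGTG was in 5 of 50 against 6.02% of 32851, and ACGTG in 19 of 50 against 16.6%. Some windows of a gene overlap, so a site can be counted more than once, as for ACGTG in Aldoa. In 38 of the 50 member windows the bases after the start were found in an annotated transcript of the gene, and the others were kept. A match of letters is a description of these windows and says nothing about binding, and a site outside the window would be missed. Windows are shown for 3 members with CACGTG and for Hk1 and Ldhb, which stood lower in SRF-OE without any of these motifs. Capitals mark ACGTG on either strand, and 0 bases of these 5 windows lie in an annotated exon.
Hk1, chr10:62379909-62380158, minus strand: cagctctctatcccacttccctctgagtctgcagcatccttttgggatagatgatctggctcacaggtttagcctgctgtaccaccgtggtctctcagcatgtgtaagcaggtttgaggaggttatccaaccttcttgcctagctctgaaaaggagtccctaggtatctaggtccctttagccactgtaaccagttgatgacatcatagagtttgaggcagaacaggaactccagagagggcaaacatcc
Pfkm, chr15:98092339-98092588, plus strand: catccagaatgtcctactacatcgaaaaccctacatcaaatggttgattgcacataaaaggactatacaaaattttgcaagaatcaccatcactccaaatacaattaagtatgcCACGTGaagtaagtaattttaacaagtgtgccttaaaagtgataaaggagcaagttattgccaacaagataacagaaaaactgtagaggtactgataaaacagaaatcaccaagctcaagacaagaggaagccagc
Ldha, chr7:46845554-46845803, plus strand: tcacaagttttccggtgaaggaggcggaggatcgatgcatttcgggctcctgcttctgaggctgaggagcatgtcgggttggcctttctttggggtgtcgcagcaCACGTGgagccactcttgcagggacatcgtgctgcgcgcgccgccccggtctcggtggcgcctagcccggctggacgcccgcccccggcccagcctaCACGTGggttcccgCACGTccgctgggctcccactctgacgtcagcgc
Ldhb, chr6:142507958-142508207, minus strand: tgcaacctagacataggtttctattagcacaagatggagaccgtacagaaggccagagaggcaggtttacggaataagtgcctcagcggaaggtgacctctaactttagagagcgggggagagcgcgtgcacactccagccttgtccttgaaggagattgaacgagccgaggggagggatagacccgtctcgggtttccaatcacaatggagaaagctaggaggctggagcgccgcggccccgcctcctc
Slc16a1, chr3:104638414-104638663, plus strand: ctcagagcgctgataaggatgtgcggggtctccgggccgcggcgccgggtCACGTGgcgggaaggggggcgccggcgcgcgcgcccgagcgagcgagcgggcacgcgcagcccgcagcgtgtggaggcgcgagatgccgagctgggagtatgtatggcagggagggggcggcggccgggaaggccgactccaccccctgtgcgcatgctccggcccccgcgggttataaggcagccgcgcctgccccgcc

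Glucose enters CMs through GLUT4, encoded by Slc2a4 and moved to the membrane by insulin, and through GLUT1, encoded by Slc2a1 and prominent in the fetal heart. Slc2a4 stood at 312 and 436 CPM in OE2 and OE3 and at 424, 381 and 435 CPM in GFP1, GFP2 and GFP3. Slc2a1 stood at 12.2 and 12.8 CPM in SRF-OE and at 13.4, 9.03 and 13.4 CPM in GFP. The groups overlapped for both genes, and the log2 fold change was -0.14 (SE 0.18, adjusted p = 0.71) for Slc2a4 and 0.06 (SE 0.23, adjusted p = 0.91) for Slc2a1, and without GFP1 it was -0.12 (SE 0.19) and 0.17 (SE 0.25).

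Hexokinase traps glucose in the cell as glucose 6-phosphate. Hk1 (chr10:62268855-62379908, GRCm38, minus strand), the isoform found in most tissues, stood at 221 and 153 CPM in OE2 and OE3 and at 225, 369 and 395 CPM in GFP1, GFP2 and GFP3. Both SRF-OE libraries were lower, with OE2 only just below GFP1, and the log2 fold change was -0.82 (SE 0.28, adjusted p = 0.35) and without GFP1 it was -1.02 (SE 0.19, adjusted p = 0.0526), short of the threshold. Hk2, the insulin-responsive isoform of muscle, stood at 161 and 223 CPM in SRF-OE and at 214, 246 and 319 CPM in GFP. The groups overlapped, with OE3 above GFP1, and the log2 fold change of Hk2 was -0.43 (SE 0.22, adjusted p = 0.41). Without GFP1 its groups no longer overlapped, and the log2 fold change was -0.55 (SE 0.21, adjusted p = 0.15).

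Phosphofructokinase commits the sugar to glycolysis, and Pfkm (chr15:98092589-98132451, plus strand), its muscle isoform, showed the most negative difference of the 35 genes. Pfkm stood at 689 and 489 CPM in OE2 and OE3 and at 785, 1246 and 1384 CPM in GFP1, GFP2 and GFP3, a mean of 589 ± 142 (SD, n = 2) against 1138 ± 314 (SD, n = 3). The SRF-OE libraries were the lowest, GFP1 lay between them and the others, and the groups did not overlap. Its log2 fold change was -0.95 (SE 0.29, adjusted p = 0.35) with the 5 libraries, and without GFP1 Pfkm fell by 1.15 on the log2 scale (SE 0.21, adjusted p = 0.0499). The window printed above lies before the first of its start sites and holds CACGTG, which the other 3 windows of Pfkm lack.

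The other isoforms of this enzyme differed less. Pfkl, the liver isoform, stood at 218 and 238 CPM in SRF-OE and at 245, 271 and 280 CPM in GFP, with a log2 fold change of -0.22 (SE 0.13, adjusted p = 0.44). Pfkp, the platelet isoform, stood at 156 and 184 CPM in SRF-OE and at 184, 209 and 250 CPM in GFP, with a log2 fold change of -0.33 (SE 0.17, adjusted p = 0.4). The Pfkl libraries did not overlap between groups, and for Pfkp OE3 reached the level of GFP1.

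The remaining early enzymes were abundant and close together. Aldoa, the muscle aldolase, was at 3077 and 3407 CPM in SRF-OE and at 3653, 3654 and 3915 CPM in GFP, and its log2 fold change was -0.21 (SE 0.19, adjusted p = 0.62). Gpi1, glucose 6-phosphate isomerase, and Tpi1, triosephosphate isomerase, had log2 fold changes of -0.26 (SE 0.14) and -0.29 (SE 0.15). All of these were lower in both SRF-OE libraries than in any GFP library. Aldoc, the brain aldolase, was the exception on the other side, but rested on 18 and 13 counts in SRF-OE and on 4, 9 and 6 counts in GFP, with a log2 fold change of 1.17 (SE 0.61, adjusted p = 0.41). Of the 7 genes of these early steps, 6 had negative and 1 a positive log2 fold change, and the groups did not overlap in 5 lower and 1 higher, against 17.3% and 16.1% of all genes.

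The PFKFB enzymes set the level of fructose 2,6-bisphosphate and with it the pace of phosphofructokinase. Pfkfb3 (chr2:11471433-11554077, minus strand), an inducible isoform with strong kinase activity, stood at 4.45 and 3.76 CPM in OE2 and OE3 and at 1.52, 1.47 and 1.81 CPM in GFP1, GFP2 and GFP3. Both SRF-OE libraries lay above all GFP libraries, GFP1 included. Pfkfb3 had a log2 fold change of 1.36 (SE 0.3, adjusted p = 0.35) and of 1.33 without GFP1 (SE 0.33, adjusted p = 0.073), from 77 and 86 counts against 32, 32 and 23.

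Pfkfb1 (chrX:150588229-150643878, plus strand), the isoform of liver and skeletal muscle, stood at 7.62 and 17.1 CPM in SRF-OE and at 13.5, 1.88 and 2.37 CPM in GFP1, GFP2 and GFP3. GFP1 lay within the SRF-OE range, and the other GFP libraries lay below it. With the 5 libraries the log2 fold change was 1.05 (SE 0.85, adjusted p = 0.57), and without GFP1 Pfkfb1 rose by 2.57 (SE 0.45, adjusted p = 0.0499). The summed fast skeletal muscle markers were likewise highest in OE3 and GFP1 and lowest in GFP2 and GFP3, with 10.3 and 32.5 CPM in OE2 and OE3 and 26.7, 3.03 and 2.44 CPM in GFP1, GFP2 and GFP3. Most of that sum in OE3 was Tnnt3, at 22.6 CPM, while Atp2a1 stood at 1.04 to 1.51 CPM in all libraries, and the part of such cells in this result was not tested. Pfkfb2, the heart isoform, stood at 53.1 to 65.3 CPM in SRF-OE and at 55.9 to 110 CPM in GFP, with a log2 fold change of -0.50 (SE 0.28, adjusted p = 0.44). Without GFP1 its groups no longer overlapped and the log2 fold change was -0.72 (SE 0.18, adjusted p = 0.071).

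Among the later steps, which return ATP, no member had groups that did not overlap. Gapdh, glyceraldehyde 3-phosphate dehydrogenase, stood at 100 and 1467 CPM in OE2 and OE3 and at 1289, 867 and 1423 CPM in GFP1, GFP2 and GFP3. OE2 alone was low. Of the 1645 genes with a mean of at least 100 CPM, Gapdh lay farthest below the other libraries in OE2, at 0.116 of the lowest of them, and the next, Wfs1, was at 0.687. The log2 fold change of Gapdh was -0.61 (SE 0.92, adjusted p = 0.77), and without OE2 it was 0.30, the opposite sign. Gapdh and several other glycolytic genes have near-identical copies elsewhere in the genome, and the handling of reads that map to several places is not given in the sources used here.

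Eno3, the muscle enolase and the most abundant member per kb of gene length, stood at 2553 and 3224 CPM in SRF-OE and at 3080, 2847 and 3131 CPM in GFP. Its log2 fold change was -0.06 (SE 0.2, adjusted p = 0.89). Eno1, the enolase of most other tissues, had only 11 and 5 counts in SRF-OE and 11, 11 and 5 in GFP, which did not resolve a difference. Eno1 has a near-identical copy, the row named Gm5506 with 2 to 5 counts, and reads shared with such copies may not have been counted, so its level and its ratio to Eno3 are uncertain. Eno1 failed the filter on low counts without GFP1 and was then not tested.

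Pgam2, the muscle phosphoglycerate mutase, stood at 1064 and 1479 CPM in SRF-OE and at 1530, 1024 and 1124 CPM in GFP, with a log2 fold change of 0.05 (SE 0.25, adjusted p = 0.93). OE3 and GFP1 were high and the other libraries low. Pgam1, its widespread counterpart, stood at 25.1 and 38.4 CPM in SRF-OE and at 32.5, 23.8 and 27.8 CPM in GFP, also highest in OE3 and GFP1, and its log2 fold change was 0.18 (SE 0.23, adjusted p = 0.72). Pkm, which makes pyruvate, and Pgk1, phosphoglycerate kinase, had log2 fold changes of -0.13 (SE 0.19) and -0.20 (SE 0.14).

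**Figure D3:**
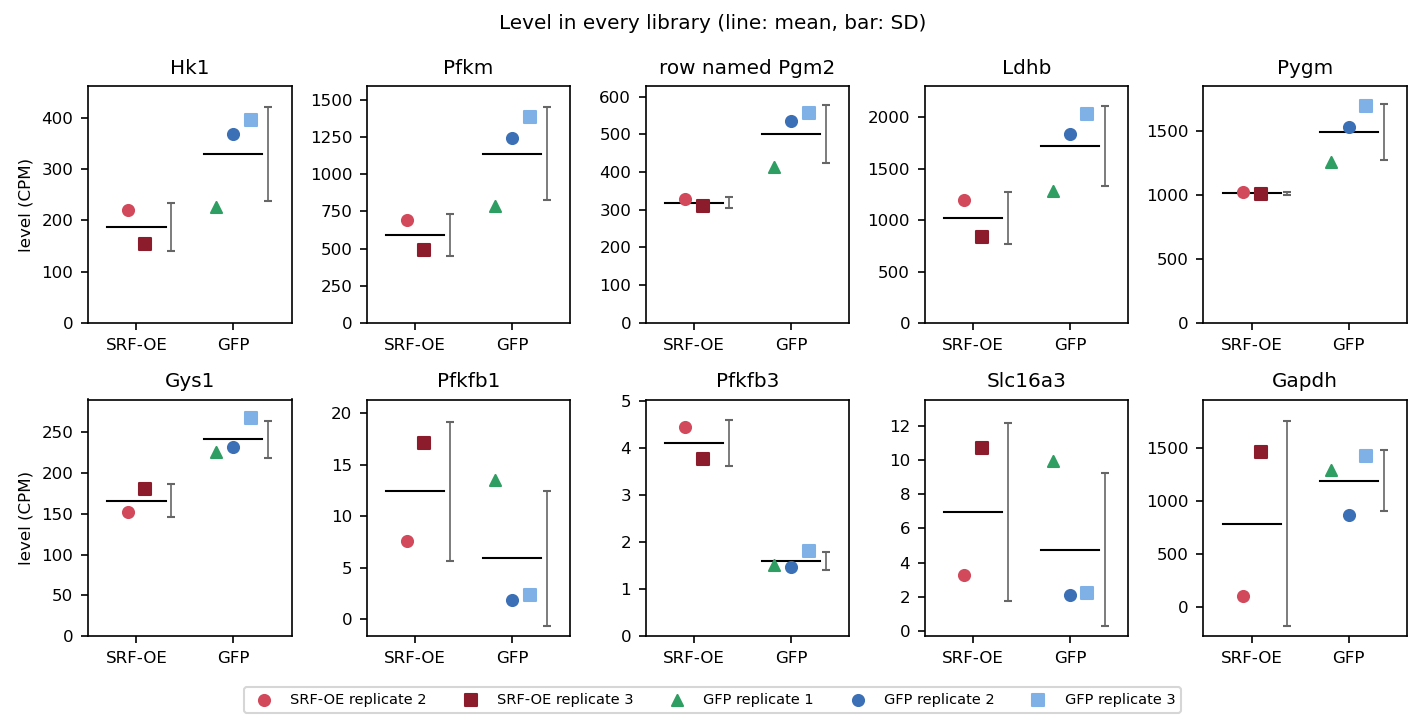
Level in CPM of 10 of the genes in every library, with SRF-OE on the left and GFP on the right of each panel. Horizontal lines are group means and the grey bars 1 SD (n = 2 for SRF-OE, n = 3 for GFP). GFP1 (green triangle) was the lowest GFP library for Hk1, Pfkm, the row named Pgm2, Ldhb, Pygm and Gys1 and stood at the SRF-OE level for Pfkfb1 and Slc16a3, while OE2 alone was low for Gapdh, at 100 CPM.

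Lactate dehydrogenase interconverts pyruvate and lactate, with Ldhb the form of heart and Ldha that of skeletal muscle. Ldhb (chr6:142490249-142507957, minus strand) stood at 1198 and 839 CPM in OE2 and OE3 and at 1282, 1834 and 2035 CPM in GFP1, GFP2 and GFP3. Both SRF-OE libraries were lower than any GFP library, and its log2 fold change was -0.75 (SE 0.27, adjusted p = 0.35), and -0.92 (SE 0.22, adjusted p = 0.067) without GFP1. Ldha stood at 1320 and 1090 CPM in SRF-OE and at 1293, 1918 and 2017 CPM in GFP. OE2 lay above GFP1, so the groups overlapped, and the log2 fold change was -0.53 (SE 0.25, adjusted p = 0.38), or -0.70 (SE 0.17, adjusted p = 0.071) without GFP1. Of the windows printed above, that of Ldha holds CACGTG at 2 places and that of Ldhb none.

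Lactate crosses the membrane through the carriers MCT1, encoded by Slc16a1 and common in heart, and MCT4, encoded by Slc16a3 and typical of glycolytic cells that release lactate. Slc16a1 stood at 405 and 477 CPM in SRF-OE and at 513, 524 and 553 CPM in GFP, without overlap, and its log2 fold change was -0.26 (SE 0.14, adjusted p = 0.42). Slc16a3 stood at 3.29 and 10.7 CPM in OE2 and OE3 and at 9.93, 2.11 and 2.21 CPM in GFP1, GFP2 and GFP3. OE3 and GFP1 were high and the other 3 libraries low. Tnnt3, a fast skeletal muscle marker, stood at 22.6 and 19.6 CPM there and at 0.0789 to 4.85 CPM in the others. Of the other markers of that list, Actn3 and Mylpf were also highest in OE3 and GFP1, and Atp2a1, Myh1 and Myh4 were not. The part of such cells in the level of Slc16a3 was not tested. The log2 fold change of Slc16a3 was 0.55 (SE 0.8, adjusted p = 0.76), and 1.71 (SE 0.58, adjusted p = 0.12) without GFP1.

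Glycogen phosphorylase releases glucose 1-phosphate from glycogen, and phosphorylase kinase activates it. Pygm (chr19:6384399-6398459, plus strand), the muscle phosphorylase, stood at 1019 and 1002 CPM in OE2 and OE3 and at 1258, 1525 and 1688 CPM in GFP1, GFP2 and GFP3, a mean of 1010 ± 12 (SD, n = 2) against 1490 ± 217 (SD, n = 3). The SRF-OE libraries lay together below all GFP libraries, and the log2 fold change was -0.56 (SE 0.19, adjusted p = 0.35), or -0.66 (SE 0.15, adjusted p = 0.065) without GFP1.

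Pygb, the brain phosphorylase, which heart also expresses, stood at 867 and 838 CPM in SRF-OE and at 955, 1201 and 1300 CPM in GFP, with a log2 fold change of -0.43 (SE 0.19, adjusted p = 0.36). Phkg1 (chr5:129863421-129898549, minus strand), the catalytic subunit of phosphorylase kinase in muscle, was far less abundant, with 9.24 and 8.43 CPM in SRF-OE and 11.6, 13.7 and 15.1 CPM in GFP. The groups did not overlap for either gene. Phkg1 had a log2 fold change of -0.61 (SE 0.2, adjusted p = 0.35). Phka1, a regulatory subunit of the same kinase, stood at 80.8 to 113 CPM in SRF-OE and at 78.3 to 117 CPM in GFP, with a log2 fold change of 0.01 (SE 0.22, adjusted p = 0.99).

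On the side of glycogen synthesis, Gys1 (chr7:45434844-45456619, plus strand), the muscle glycogen synthase, stood at 152 and 180 CPM in OE2 and OE3 and at 225, 231 and 267 CPM in GFP1, GFP2 and GFP3. The groups did not overlap, and GFP1 lay with the other GFP libraries. Gys1 had a log2 fold change of -0.54 (SE 0.14, adjusted p = 0.35), and -0.58 (SE 0.14, adjusted p = 0.072) without GFP1. The genes for glycogenin (Gyg), the branching enzyme (Gbe1) and UDP-glucose pyrophosphorylase (Ugp2) had log2 fold changes of 0.21 (SE 0.17), 0.09 (SE 0.27) and -0.07 (SE 0.18), with overlapping groups.

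Phosphoglucomutase links glycogen to glycolysis. The symbols Pgm1 and Pgm2 were exchanged between annotation releases, and the table does not name the release it follows. Some other rows carry older symbols, such as Pkm2 for Pkm and Brp44 for Mpc2, but this does not settle these names. The rows are therefore given by name without a position. The row named Pgm2 stood at 329 and 309 CPM in OE2 and OE3 and at 412, 535 and 556 CPM in GFP1, GFP2 and GFP3, a mean of 319 ± 14.1 (SD, n = 2) against 501 ± 77.8 (SD, n = 3). The groups did not overlap. Its log2 fold change was -0.65 (SE 0.17, adjusted p = 0.35), and without GFP1 it fell by 0.77 (SE 0.13, adjusted p = 0.0484). The row named Pgm1 was low, at 8.66 and 4.37 CPM in SRF-OE and 4.31 to 5.84 CPM in GFP, with a log2 fold change of 0.39 (SE 0.34, adjusted p = 0.6).

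Among the 35 genes, the most abundant per kb of gene length were Eno3, Aldoa, Pgam2, Ldhb and Gapdh, with mean levels of 1953, 1942, 1373, 1115 and 836 CPM per kb over the 5 libraries. For glucose transport, phosphofructokinase, aldolase, the mutase and enolase, the muscle isoform was the higher one per kb in all libraries. The other gene had few counts for aldolase (Aldoc) and enolase (Eno1), and the level of Eno1 is uncertain. For hexokinase, Hk1 was above Hk2 per kb in all libraries but OE3. To see whether the balance within such pairs differed between groups, the ratio of levels per kb was taken in each library for 10 pairs and compared by an exact two-sided permutation test over libraries, which with 2 against 3 libraries cannot give a p below 0.1. The ratio of Pfkl to Pfkm was 0.26 and 0.399 in OE2 and OE3 and 0.256, 0.178 and 0.166 in GFP1, GFP2 and GFP3, a log2 difference of 0.71 (exact permutation p = 0.2, 0.5 after Benjamini-Hochberg adjustment over the 10 pairs). OE2 lay barely above GFP1.

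The ratio of Ldha to Ldhb was 0.736 and 0.868 in SRF-OE and 0.674, 0.699 and 0.663 in GFP, a log2 difference of 0.24. The ratio of Pygb to Pygm was 0.63 and 0.62 in SRF-OE and 0.562, 0.584 and 0.57 in GFP, a log2 difference of 0.13. In both pairs each SRF-OE library had the higher ratio, since Ldhb and Pygm differed more than Ldha and Pygb. These and the pair of Aldoc to Aldoa, which differed by 1.41, gave the smallest exact permutation p of 0.1 (0.33 after adjustment). The ratio of Hk1 to Hk2 ran from 0.841 in OE3 to 1.83 in GFP2, with OE2 at 1.67, and overlapped between groups. The other 5 pairs overlapped as well, with log2 differences from -0.26 for Eno1 to Eno3 to 0.99 for Slc16a3 to Slc16a1 and adjusted exact permutation p of 0.6 to 0.8.

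**Figure D4:**
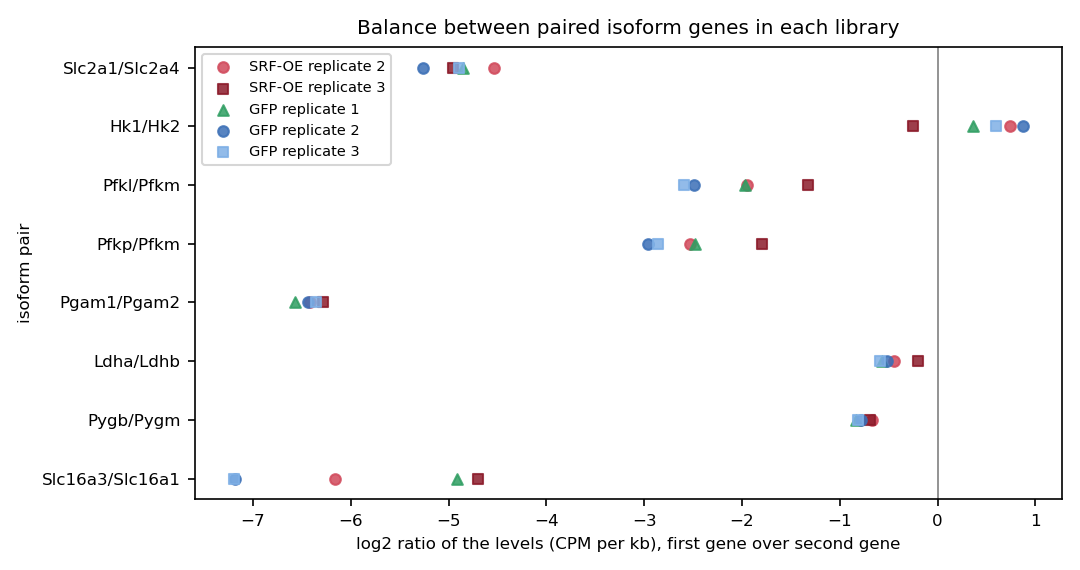
Log2 ratio of the levels (CPM per kb) of the first gene over the second for 8 isoform pairs, with a marker for each of the 5 libraries. The red SRF-OE markers lie to the right of all GFP markers for Pfkl/Pfkm, Ldha/Ldhb and Pygb/Pygm, by the least between OE2 and GFP1 for Pfkl/Pfkm (ratios 0.26 and 0.256).

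Of 40 further genes of glucose, lactate and glycogen metabolism, 32 could be tested. With the 5 libraries edgeR called 0 of them. DESeq2 called 4 lower, Mpc1, Mpc2 and Ppp1r3a among them, where it called 18.3% of the 1167 genes with an adjusted p lower. Of the 32, 9 had positive and 23 negative log2 fold changes, and the median was -0.26. At an unadjusted p under 0.05, 10 were lower and 4 higher, against 7.59% and 6.35% of all genes. The groups did not overlap in 15 with SRF-OE lower and in 6 with SRF-OE higher, where all genes had 17.3% and 16.1%. Without GFP1, 3 were called lower and 1 higher, against 0.97% and 1.98% of all genes, and upper quartile scaling left 0 of these 4 calls. The genes named from this list were picked by their calls after the values were seen.

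Among those called lower without GFP1 were the lysosomal acid glucosidase gene Gaa (-0.78, SE 0.12, adjusted p = 0.0473) and Ppp1r3a (-0.73, SE 0.12, adjusted p = 0.0484), which ties protein phosphatase to glycogen in muscle. Gaa stood at 136 and 123 CPM in OE2 and OE3 and at 143, 216 and 230 CPM in GFP1, GFP2 and GFP3, and Ppp1r3a at 112 and 111 CPM against 158, 175 and 196 CPM. Neither overlapped between groups, with OE2 close to GFP1 for Gaa. Called higher was Slc2a3, the gene for the glucose transporter GLUT3, at 3.52 and 3.19 CPM in SRF-OE and 1.52, 0.55 and 0.552 CPM in GFP, with a log2 fold change of 2.60 (SE 0.39, adjusted p = 0.0473) without GFP1. The pyruvate carrier genes Mpc1 and Mpc2, at 181 and 192 against 229 to 286 CPM and at 409 and 360 against 504 to 538 CPM, had log2 fold changes of -0.45 (SE 0.14, adjusted p = 0.35) and -0.43 (SE 0.14, adjusted p = 0.35).

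Of 18 genes for regulators of glucose metabolism, edgeR called 0 in either fit. At an unadjusted p under 0.05 over the 5 libraries, 1 was higher and 0 lower, against 6.35% and 7.59% of all genes. DESeq2 called 0 with the 5 libraries. Without GFP1 it called 2 higher (Arrdc4 and Prkag2) and 1 lower (Prkab1), against 6.29% and 6.14% of all genes. With the 5 libraries 6 of the 18 had positive and 12 negative log2 fold changes, with a median of -0.14. Hif1a, the hypoxia-inducible factor gene, stood at 171 and 166 CPM in SRF-OE and at 161, 222 and 198 CPM in GFP, and Txnip, a glucose-induced inhibitor of glucose uptake, at 232 and 220 CPM against 198, 392 and 203 CPM. Both overlapped between groups. Prkag2, a regulatory subunit of AMP-activated protein kinase, stood at 76.1 and 106 CPM against 67.1, 62.1 and 51.3 CPM, without overlap, and had a log2 fold change of 0.60 (SE 0.19, adjusted p = 0.35). Other subunit genes of this kinase went both ways. Prkab2 had a log2 fold change of 0.31, and Prkab1, Prkag1, Prkaa2 and Prkaa1 had -0.52, -0.37, -0.14 and -0.07. Which regulators are named was not fixed in advance.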

How the data were processed

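RNA was reverse transcribed and amplified with the SMART-Seq v4 kit and made into libraries with the Nextera XT kit. The submitters' processing notes name CASAVA 1.8, STAR 2.5.3a, featureCounts of Subread 1.5.2 and the build mm10, and the authors deposited raw counts per gene in 1 table. The column headed for the first SRF-OE replicate held gene lengths in bp (72.1% of 20929 genes lay within 5% of an annotated transcript length), so it was used as length only. Columns were matched to samples by name alone, although the names may be displaced by 1 column, and 0 columns of per-sample values were left unused. Settings for strand and for reads that map to several places are not given in the sources used here.

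From the counts, edgeR 4.0.16 (R 4.3.3) was run with filterByExpr, TMM factors, glmQLFit and glmQLFTest over all genes, with a Benjamini-Hochberg adjusted p cutoff of 0.05, two-sided. Standard errors were derived from the quasi-likelihood F statistic, as the absolute log2 fold change over the root of F. DESeq2 1.42.0, other scalings and filters, the replicate block and leaving out each library were tried as alternatives, and the scripts were tested on simulated data. Members and lists were chosen with earlier results of these data known. Values in every library are given for members past the cutoff with the 5 libraries or without 1 GFP library, members with an unadjusted p under 0.05, the isoform pairs, the 5 highest members per kb and those that fail the filter. Promoter windows are from RefSeq and gene positions from GENCODE on GRCm38, which is mm10. A gene of the further list is not reported here.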

Additional observations from a re-analysis of the deposited data

How the results depend on the processing

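With the 5 libraries, the other scalings and filters called 0 members, as before. DESeq2 called 6 members lower (Hk1, Pfkm, Ldhb, Pygm, Gys1 and the row named Pgm2) and 0 higher, but gave an adjusted p to 23 of the 35, and of the 1167 genes with an adjusted p it called 11 (0.943%) higher and 213 (18.3%) lower. With the replicate number as a block (replicate block), 1 member was called higher (Pfkfb1) and 3 lower (Hk1, Pfkm and the row named Pgm2), with 582 (4.23%) and 432 (3.14%) of all genes, and Srf had a log2 fold change of 2.78 (adjusted p = 0.0048 by edgeR). Only numbers 2 and 3 occur in both groups, so the library labelled GFP1 adds nothing to the group difference of the block fit. That fit is thus no check independent of leaving GFP1 out. The deviations of numbers 2 and 3 correlated at 0.41 and -0.0861, so the numbers were not taken as pairs. Even so, same-numbered libraries share the sex of the mice (Xist at 147 and 88.8 CPM in number 2, Ddx3y at 94.7 and 100 CPM in number 3). The block also called Prkab1 lower among the 18 regulators. Leaving out each library in turn gave 0 to 1 members higher and 0 to 2 lower, 0 to 265 genes higher and 0 to 130 lower, with the calls all in the fit without GFP1. Where 1 SRF-OE library was left, it was assumed to vary like the GFP libraries. It gave a median of the members from -0.37, without OE3, to -0.15, and a log2 fold change of Srf from 1.13 to 2.87. The cause of these shifts was not tested.

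Leaving out 1 library also changed the sign of 8 of the 25 members given in every library. The same held for 6 of the other 10 (Pkm, Phka1, Gyg, Gbe1, Ugp2 and the row named Pgm1) and for 2 pairs. None of the 8 was called with the 5 libraries, or by edgeR with TMM and filterByExpr when 1 library was left out. Without GFP1, DESeq2 called Slc16a3 higher, and the fit with no filter called Slc16a3 higher and Gapdh lower. The log2 fold change ran from -0.11 to 0.17 for Slc2a1, -0.41 to 0.075 for Slc2a4, -3.58 to 0.30 for Gapdh, -0.17 to 0.45 for Pgam1, -0.21 to 0.27 for Pgam2, -1.11 to 0.39 for Eno1, -0.25 to 0.093 for Eno3 and -0.55 to 1.71 for Slc16a3. The log2 difference ran from -0.86 to 0.13 for Hk1 to Hk2 and from -1.20 to 0.67 for Eno1 to Eno3.

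The calls without GFP1 (1 higher, 2 lower) lie at the threshold. In alternatives chosen after the data were seen, on the same 4 libraries, upper quartile scaling and a minimum of 10 counts in every library each left 0 higher and 0 lower, no filter gave 3 and 12 (7.75% and 6.09% of all genes), and DESeq2 gave 2 and 9 (6.29% and 6.14%). No filter also called 3 regulators higher and 4 lower, and 4 and 3 of the targets of hypoxia-inducible factors. Aldoc and Eno1, with 18 counts or fewer in every library, are limited by counting.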

Other observations

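Of 14 targets of hypoxia-inducible factors outside glycolysis, 7 had positive and 7 negative log2 fold changes with the 5 libraries, with a median of 0.015, and 0 were called by edgeR with TMM and filterByExpr, with or without GFP1, or by DESeq2 with the 5 libraries. DESeq2 without GFP1 called 1 higher and 2 lower, against 6.29% and 6.14% of all genes. The replicate block, to whose group difference GFP1 adds nothing, called Ndrg1 and Egln3 higher (adjusted p = 0.03 each by edgeR), against 4.23% of all genes. At an unadjusted p under 0.05 over the 5 libraries, 2 were higher and 2 lower, against 6.35% and 7.59% of all genes. The genes named here were picked after their values were seen. Ankrd37 stood at 8.55 and 7.34 CPM in OE2 and OE3 and at 4.32, 3.76 and 3.94 CPM in GFP1, GFP2 and GFP3, and its log2 fold change was 0.98 (SE 0.22, adjusted p = 0.35). Pdk1, the kinase that turns off pyruvate dehydrogenase, stood at 151 and 134 CPM in SRF-OE and at 162, 213 and 201 CPM in GFP, with a log2 fold change of -0.43 (SE 0.16, adjusted p = 0.35). Vegfa, the endothelial growth factor gene, stood at 260 and 197 CPM against 235, 335 and 474 CPM and overlapped between groups, with GFP1 between OE2 and OE3. Its log2 fold change was -0.61 (SE 0.30, adjusted p = 0.4), and -0.82 (SE 0.22, adjusted p = 0.082) without GFP1. Vegfa and Pdk1 were the 2 genes that DESeq2 called lower without GFP1.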
